A study of Mus musculus with 8 samples.

Results

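Cd37 and 8 other tetraspanin genes (Cd9, Cd63, Cd81, Cd82, Cd151, Tspan3, Tspan4 and Tspan14) were followed in RNA from mouse embryonic stem cells that had lost 1 of 3 enhancers. These 9 genes, of 17726 with a usable value, were chosen by name, and Cd37 was selected on its level in these same samples, which was higher in the knockouts than in unedited cells. The difference of Cd37 from unedited cells is therefore given as a description with no test, and the question asked of the other 8 genes was whether they moved with it. The cells were E14TG2a, an embryonic stem cell line of strain 129/Ola, at passages 3 to 6, and their culture had gelatin-coated plates without feeder cells. Unedited (WT) and knockout cells alike grew in serum medium with LIF, an inhibitor of GSK3 (CHIR99021) and an inhibitor of MEK (PD0325901), which together hold stem cells undifferentiated. The 3 knockouts, E1-KO, E2-KO and E3-KO, were made with CRISPR/Cas9, and the series text ties the study to enhancers acting on the stem cell factor Sox2. The labels give neither the position of each enhancer nor the number of clones per knockout, so a property of a clone and an effect of the lost enhancer cannot be told apart. Each of the 4 groups had 2 samples, which the labels call biological duplicates.

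Tetraspanins are small membrane proteins that cross the membrane repeatedly and expose a large and a small loop to the outside. They bind each other and a set of partners, among them integrins, immunoglobulin superfamily proteins and the protease ADAM10, and so gather these partners into membrane patches or steer their traffic. CD9, CD63 and CD81 are abundant on extracellular vesicles and serve as their usual markers, CD9 on eggs is needed for fusion with sperm, and CD37 is known as a tetraspanin of leukocytes, above all of mature B cells. Embryonic stem cells are not a cell type known for CD37.

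Cd37 (ENSMUSG00000030798) lies on the minus strand of chromosome 7 at positions 45233632 to 45239115 of GRCm38, the build of the annotation used here. The promoter sequences below are from RefSeq (build GRCm38.p6), where all 9 genes had at least 1 window of 300 bases around an annotated start. They are shown because Cd37, low in unedited cells, and Cd9 and Cd81, the most abundant of the 9 genes there, differ in the density of CG dinucleotides next to their starts. Each stretch covers positions -120 to -36 relative to the start, reads 5′ to 3′ on the strand of the gene, and carries its CG dinucleotides in capitals. The coordinates are chr7:45238875-45238959 on the minus strand for Cd37, chr6:125494796-125494880 on the minus strand for Cd9 and chr7:143052630-143052714 on the plus strand for Cd81. The Cd37 stretch falls inside the span that the GENCODE annotation gives the gene and touches none of its UTR records.
Cd37: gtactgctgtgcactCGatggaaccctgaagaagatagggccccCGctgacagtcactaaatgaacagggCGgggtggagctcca
Cd9: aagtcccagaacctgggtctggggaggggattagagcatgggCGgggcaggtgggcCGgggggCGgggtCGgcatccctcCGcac
Cd81: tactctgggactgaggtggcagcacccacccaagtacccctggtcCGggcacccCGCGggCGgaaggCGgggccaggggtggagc
The Cd37 stretch holds 3 CG dinucleotides against 5 in each of the other two. Over the whole window of 300 bases, Cd37 had 8 CG dinucleotides, an observed-over-expected ratio of 0.34 and a GC content of 57.7%. The windows of Cd9 and Cd81 had 18 and 23, with ratios of 0.69 and 0.71. The median over all 32851 RefSeq windows was 7 CG dinucleotides and a ratio of 0.38, so Cd37 lay near the middle of mouse promoters and Cd9 and Cd81 above it. Across the 9 genes, CG density did not follow the level in unedited cells. Cd63, abundant at a WT mean of 84.3 FPKM (a unit explained below), had 6 CG dinucleotides with a ratio of 0.33. Cd82, at a WT mean of 0.551 FPKM, had 4, 11, 15 and 16 in its 4 windows. A low CG density was thus not particular to Cd37 among the 9 genes, and 1 of the windows of Tspan14 had 3. The other window of Tspan14 had 33 with a ratio of 0.89, the highest of all windows of the 9 genes.

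Words bound by factors of blood and stem cells were also searched on both strands of these windows. The letters GAGGAA, the core word of ETS factors of the PU.1 kind, occurred 2 times in the Cd37 window, 2 times in that of Cd63, 2 times in 1 of the 4 windows of Cd82 and 3 times and 1 time in those of Tspan14, and 28.3% of all windows held at least 1. CATTGT, a word of SOX factors, occurred 1 time in the Cd37 window and in none of the other windows of the 9 genes, and 12.6% of all windows held it. GGGCGG, the GC box, occurred 1 time for Cd37, 2 times for Cd9, 3 times for Cd81 and 6 times in 1 window of Tspan14. It was also in windows of Cd82, Cd151 and Tspan4 and in none of Cd63 and Tspan3, and 35.7% of all windows held it. The sites below are shown because they carry the words in Cd37, with GAGGAA or its complement TTCCTC in capitals. The site upstream, at chr7:45238990-45239019 on the minus strand, holds GAGGAA followed within a few bases by cattgt. The site at chr7:45238845-45238874 on the minus strand holds the word on the opposite strand. This start-proximal site touches 1 UTR record of the GENCODE annotation, and the upstream site touches none.
Cd37 upstream site: atggacacctgcGAGGAAcccattgtgtcc
Cd37 start-proximal site: cccccccggaacTTCCTCtttctctgccgg
These matches describe letters only, and binding was not measured here.

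Levels are given in FPKM, fragments per unit of transcript length and of sequencing depth, which allows levels of different genes to be compared. Cd37 stood at 1.17 and 2.02 FPKM in the 2 WT samples, with E1-KO at 21.5 and 19.8, E2-KO at 17.7 and 12.4 and E3-KO at 7.76 and 9.14. All 6 knockout samples lay above both WT samples, and the 3 knockouts did not overlap one another, with E1-KO highest and E3-KO lowest. The group means were 1.59 ± 0.601 FPKM (WT), 20.6 ± 1.23 (E1-KO), 15.1 ± 3.74 (E2-KO) and 8.45 ± 0.978 (E3-KO), given with the SD of n = 2 samples. The ratios to the WT mean were therefore 12.9, 9.45 and 5.30. On the scale of log2(FPKM + 1), which understates changes of genes at low levels, the differences from WT were 3.08, 2.63 and 1.88, each with a standard error of 0.20. That error describes spread between samples, takes no account of the choice of Cd37 and is not a test. The gap from E1-KO to E3-KO was -1.20 on that scale, that from E2-KO to E3-KO was -0.75 and that from E1-KO to E2-KO was -0.45. With a pseudocount of 0.1 in place of 1 the differences from WT became 3.66, 3.19 and 2.38.

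Within the family, Cd37 moved from a minor to a middle-ranking transcript. The 28 tetraspanin genes with a value summed to 796 and 819 FPKM in WT, with E1-KO at 653 and 644, E2-KO at 604 and 690.0 and E3-KO at 637 and 585. The share of Cd37 in that sum was 0.147% and 0.247% in WT, with E1-KO at 3.29% and 3.07%, E2-KO at 2.93% and 1.80% and E3-KO at 1.22% and 1.56%. Its rank among the 28 went from 18 and 15 in WT to 6 in both E1-KO samples, then 7 and 8 (E2-KO) and 9 and 8 (E3-KO). Even in E1-KO it stayed far under Cd9, which made up 44.8% and 45.6% of the family sum there.

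**Figure D1:**
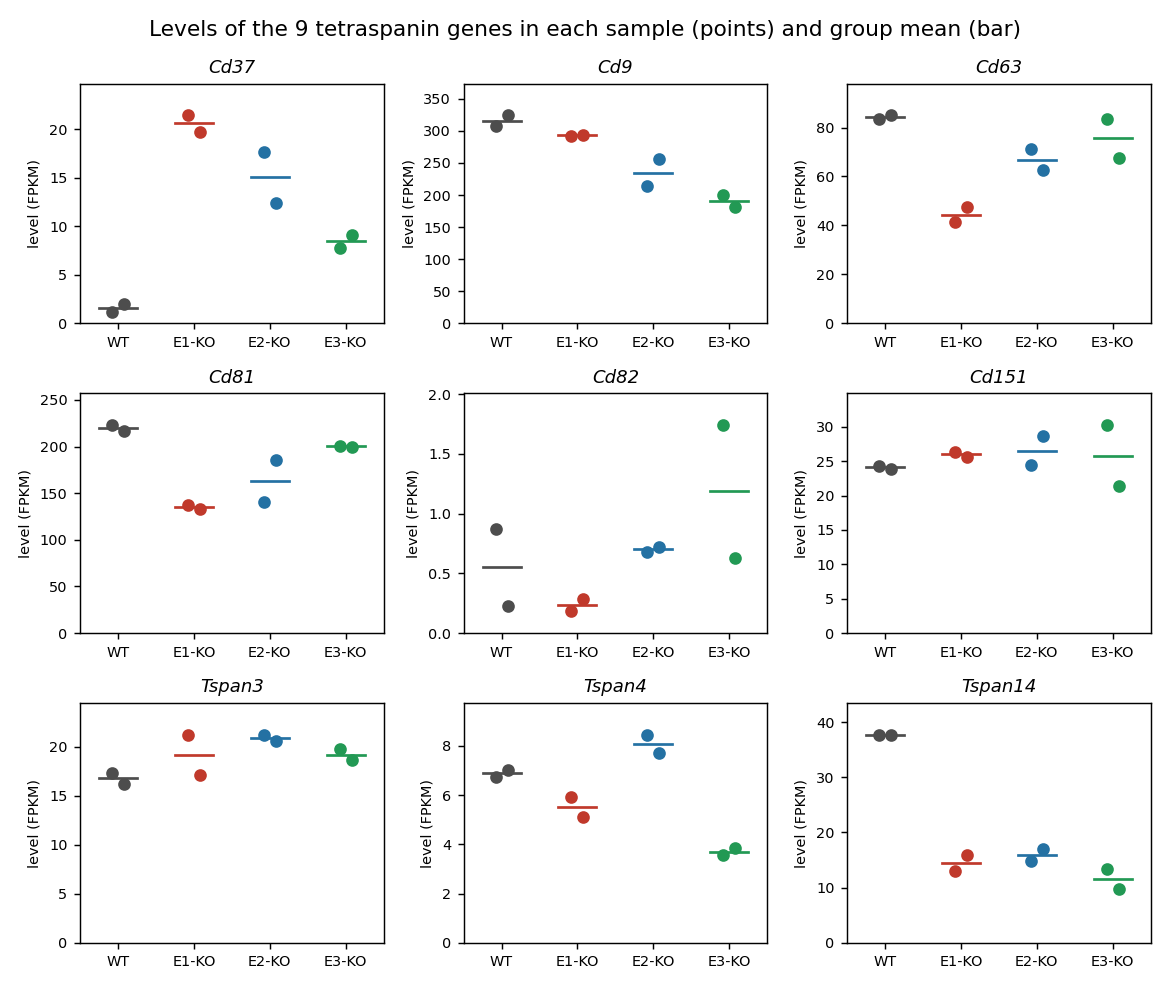
Levels in FPKM (linear axes from 0) of the 9 tetraspanin genes, 1 panel per gene, with 1 point per sample and a bar at the mean of the 2 samples of WT, E1-KO, E2-KO and E3-KO. Cd37 is at 1.17 and 2.02 FPKM in WT and between 7.76 and 21.5 in the knockouts, whereas Tspan14 is near 37.7 in WT and at or below 17.0 in every knockout sample.

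None of the 4 tested neighbours of Cd37 was called higher in all 3 knockouts. Of the 3 nearest measured genes on each side, Slc6a21 and Hrc were under the mean of 1 FPKM required for a test. Tead2, which encodes a transcription factor of the Hippo pathway, stood at 65.7 and 68.5 FPKM in WT, with E1-KO at 93.0 and 87.2, E2-KO at 61.7 and 84.1 and E3-KO at 57.9 and 54.3. It was called higher in E1-KO (log2 difference 0.42, limma adjusted p = 0.0395), and its values against WT were 0.10 (adjusted p = 0.59) in E2-KO and -0.25 (adjusted p = 0.161) in E3-KO. That call in E1-KO was lost without any 1 of the 4 samples compared (0.103 to 0.181), with a replicate block (0.0513), after quantile normalization (0.0757), without the filter (0.0751) and without a variance trend (0.058). Trpm4, a cation channel gene, stood at 5.01 and 5.47 FPKM in WT and between 2.56 and 3.49 in all knockout samples, and it fell in all 3 knockouts by limma (log2 differences -0.64, -0.64 and -0.77, adjusted p = 0.0109, 0.0117 and 0.00383). Its calls in E1-KO and E2-KO were lost without WT replicate 2 (adjusted p = 0.08 and 0.0857), without E1-KO replicate 1 (0.091) and without E2-KO replicate 1 (0.0606). Dkkl1 had log2 differences of 0.39, 0.43 and 0.70 (adjusted p = 0.318, 0.277 and 0.0793) and Ccdc155 of 0.17, -0.09 and -0.33, none of which passed. The annotated ends of Tead2 (plus strand, positions 45215753 to 45233644) and Cd37 (minus strand) overlap by 13 bases, and whether reads were counted by strand is not given in the sources used here. Reads in those bases cannot be assigned to 1 of the 2 genes without strand.

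**Figure D2:**
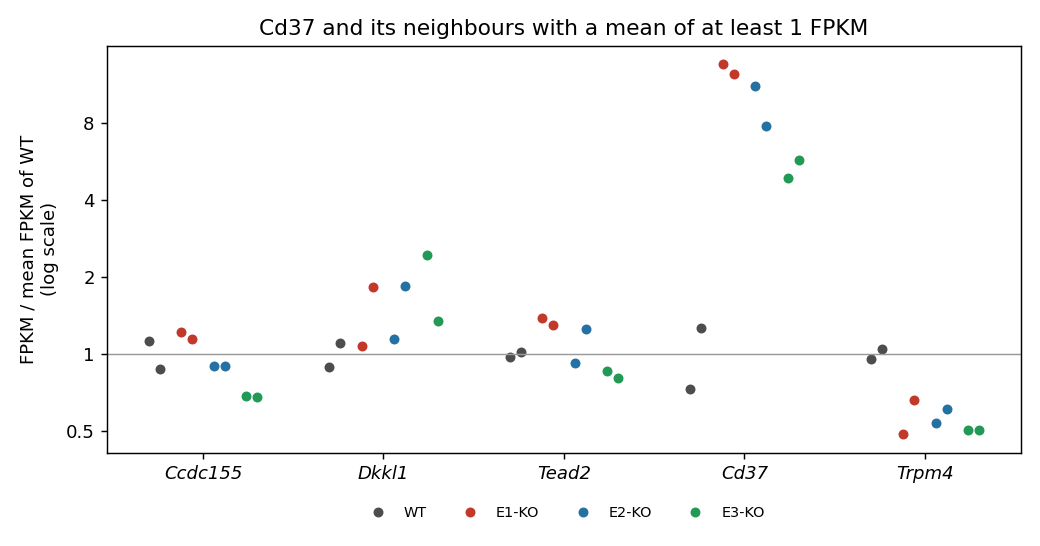
Level in each sample divided by the mean of the WT samples (log axis) for Cd37 and the neighbours averaging 1 FPKM or more, in chromosome order, with 1 point per sample coloured by group. Cd37 alone lies several times above 1 in every knockout sample, while Trpm4 lies below 1 in all of them.

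The labelled cell type was checked against its markers, and markers of leukocytes and of fibroblasts, which feeder layers consist of, were read beside Cd37. All 8 stem cell markers were at 1 FPKM or more in every group, and their sum ranged from 2556 to 2637 FPKM (WT), 2370.3 to 2445 (E1-KO), 2512 to 2676 (E2-KO) and 2090.0 to 2363 (E3-KO). Sox2 was among them, at 131 and 136 FPKM in WT, with E1-KO at 58.0 and 60.3, E2-KO at 114 and 97.5 and E3-KO at 97.7 and 91.0. By limma, 0, 3 and 1 of the 8 were called higher in E1-KO, E2-KO and E3-KO, and 3, 2 and 4 lower. Over all genes, 15.0%, 14.1% and 13.9% were called higher and 23.0%, 22.0% and 30.8% lower. Dppa5a was lower in all 3 (log2 differences -0.7, -0.63 and -0.64, limma adjusted p = 0.00396, 0.00704 and 0.00494). Of 18 leukocyte markers, 16 had a value. The number at 1 FPKM or more was 6 in E1-KO and 5 in each other group. Their sum was 79.3 to 86.5 FPKM (WT), 81.9 to 89.3 (E1-KO), 93.9 to 96.9 (E2-KO) and 97.4 to 104 (E3-KO), an order unlike that of Cd37. Most of each sum came from Laptm5, a lysosomal gene. Over the 8 samples Laptm5 ranged from 51.7 to 77.9 FPKM, Lck from 6.52 to 23.9, Spi1 from 1.51 to 4.40, Cd3e from 1.09 to 3.48, Cd79b from 0.647 to 2.29 and Cd22 from 0.640 to 2.43. At the low end, Ms4a1, Cd53 and Itgb2 were each at most 0.0892 FPKM in every sample, and Cd53 and Ms4a1 were listed at 0 in both WT samples. Lck, a kinase of T cells, did rise by limma, with log2 differences of 1.19, 1.15 and 0.91 (adjusted p = 0.0206, 0.0242 and 0.0486). Without WT replicate 1, its lower WT sample, these became 0.127, 0.146 and 0.242, and without E3-KO replicate 2 the difference in E3-KO was 0.38 (0.317). The calls of Lck were also lost without E1-KO replicate 1 (0.0907) or 2 (0.0787) in E1-KO, without E2-KO replicate 1 (0.148) in E2-KO, and without WT replicate 2 (0.0655), E1-KO replicate 1 (0.0691) or 2 (0.0693) in E3-KO. Without the filter on low levels all 3 were lost (0.0636, 0.072 and 0.114), and that in E3-KO was also lost with a replicate block (0.0586), in a fit of the 4 samples alone (0.0685) and without a variance trend (0.0603). Cd79b, of the B cell receptor, was called higher in E1-KO alone of the 3 (0.80, adjusted p = 0.00418), Cd22 was called higher in E3-KO (0.65, adjusted p = 0.0266) and Cd3e lower in E3-KO (-0.70, adjusted p = 0.0226). Cd22 lost its call without E3-KO replicate 1 (0.0772) or 2 (0.0867) or WT replicate 2 (0.164), and Cd3e without E3-KO replicate 2 (0.112), WT replicate 1 (0.173) or the filter (0.0527). Cd79b was under 1 FPKM on average in every group but E1-KO and reached the test only through that group, so its direction was partly set by the filter. Of 8 fibroblast markers, 1 was at 1 FPKM or more in WT and 2 in each knockout. Their sum was 3.498 to 3.56 FPKM (WT), 5.43 to 5.70 (E1-KO), 3.48 to 4.57 (E2-KO) and 4.80 to 5.14 (E3-KO), and Thy1 rose among them (log2 differences 1.03, 0.51 and 1.06, limma adjusted p = 0.00174, 0.0374 and 0.00115). Its call in E2-KO was lost without E2-KO replicate 2 (0.175), WT replicate 1 (0.0977) or 2 (0.179), or E1-KO replicate 1 (0.0573) or 2 (0.0567), in a fit of the 4 samples alone (0.0679) and without the filter (0.0588). Thy1 was under 1 FPKM in both WT samples and reached the test only through the knockouts, so its direction too was partly set by the filter. In bulk RNA, more cells that carry a transcript and more transcript per cell cannot be told apart. The part of these markers in the rise of Cd37 was not tested beyond these values.

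On the deposited scale, none of the 8 other tetraspanins was called higher than WT in any knockout. Tspan3 was called higher in E2-KO and E3-KO after median-ratio scaling (limma adjusted p = 0.0354 and 0.0428) and after quantile normalization (0.0245 and 0.0291). Cd82 was under 1 FPKM on average and was not tested, so the counts are of 7 genes, and a gene was called at a limma adjusted p under 0.05 over all 11268 genes tested. In E1-KO, 0 of 7 were higher and 3 lower (Cd63, Cd81 and Tspan14), where 15.0% of all genes were called higher and 23.0% lower. In E2-KO, 0 were higher and 3 lower (Cd9, Cd81 and Tspan14), against 14.1% and 22.0% of all genes. In E3-KO, 0 were higher and 3 lower (Cd9, Tspan4 and Tspan14), against 13.9% and 30.8%. With only 7 genes, a count of 0 higher is near such shares. At an unadjusted p under 0.05, limma, the only tool run, had 0, 1 and 0 higher and 3, 4 and 3 lower. The share of all genes at that threshold was not counted, so these counts have no background beside them. The median log2 difference of the 7 was -0.28 (E1-KO), -0.33 (E2-KO) and -0.16 (E3-KO), and that of all genes tested was -0.062, -0.076 and -0.151. The 3 comparisons share the 2 WT samples, so their agreement is not independent. The excess of lower calls over all genes depended on scaling. After median-ratio scaling, which sets aside that shift of the median, E1-KO had 2062 genes called higher and 2170 lower, E2-KO 2000 and 1967, and E3-KO 2356 and 2368. On the deposited scale the same counts were 1694 and 2590, 1594 and 2475, and 1565 and 3470.

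Cd9, whose product is a vesicle tetraspanin and partner of integrins and of the immunoglobulin protein EWI-2, was the most abundant of the 9 in WT. It stood at 307 and 325 FPKM in WT, with E1-KO at 293 and 294, E2-KO at 213 and 256 and E3-KO at 199.6 and 182. E3-KO was lowest and overlapped no other group, while E1-KO lay just under WT. Cd9 fell in E2-KO (log2 difference -0.43, limma adjusted p = 0.0192) and in E3-KO (-0.73, adjusted p = 0.00142), with a standard error of 0.116. In E1-KO the value was -0.11 (adjusted p = 0.494). The call in E2-KO was lost without E2-KO replicate 1 (adjusted p = 0.0774), WT replicate 1 (0.0726) or WT replicate 2 (0.128). Cd9 lies on chromosome 6, at positions 125460266 to 125494791 of GRCm38, and in E3-KO that whole chromosome sat lower than the others, by -0.52 and -0.55 in median log2 ratio in the 2 samples, against -0.00 to 0.05 in the other 6. With each sample's chromosome 6 values moved by its own shift, the difference of Cd9 in E3-KO from WT became -0.19 (adjusted p = 0.221).

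Cd81, the gene of another vesicle tetraspanin, had its low values in other groups. It stood at 223 and 217 FPKM in WT, with E1-KO at 137 and 133, E2-KO at 140.9 and 186 and E3-KO at 200.4 and 199.7. The knockout with the lowest Cd9 thus had Cd81 nearest to WT. Cd81 fell in E1-KO (log2 difference -0.70, SE 0.129, limma adjusted p = 0.00344), and this call held under every alternative and without any 1 sample. Its call in E2-KO (-0.44, adjusted p = 0.0262) was lost after median-ratio scaling (-0.36, adjusted p = 0.0623), in a fit of the 4 samples alone (0.0551), without the filter on low levels (0.0527) and without E2-KO replicate 1 (0.0988), WT replicate 1 (0.126) or WT replicate 2 (0.106). In E3-KO the value was -0.14 (adjusted p = 0.414), close to the median of all genes, and became 0.04 after median-ratio scaling.

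Cd63, whose product cycles through late endosomes and lysosomes and is loaded onto exosomes, stood at 83.3 and 85.2 FPKM in WT, with E1-KO at 41.4 and 47.4, E2-KO at 71.0 and 62.7 and E3-KO at 83.5 and 67.7. The E1-KO samples were the lowest, and E3-KO overlapped WT. Cd63 fell in E1-KO (log2 difference -0.91, SE 0.126, limma adjusted p = 0.000959). The values of -0.33 in E2-KO (adjusted p = 0.0674) and -0.16 in E3-KO (adjusted p = 0.322) did not pass. The value in E2-KO passed after quantile normalization (-0.39, adjusted p = 0.0266), in a fit of the 4 samples alone (0.0494) and without either E3-KO replicate (0.0363), and the value in E3-KO became 0.01 after median-ratio scaling.

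Tspan14 was the only 1 of the 7 called lower in all 3 knockouts. Its product belongs to the TspanC8 group (Tspan5, Tspan10, Tspan14, Tspan15, Tspan17 and Tspan33), tetraspanins that carry the membrane protease ADAM10 out of the endoplasmic reticulum and steer which substrates, such as Notch and cadherins, it cuts. The gene lies on the minus strand of chromosome 14 at positions 40906445 to 40966807 of GRCm38. Tspan14 stood at 37.6 and 37.7 FPKM in WT, with E1-KO at 13.1 and 15.8, E2-KO at 14.8 and 17.0 and E3-KO at 13.3 and 9.80. The gap between the lowest WT sample and the highest knockout sample was wider than the gap between the 2 samples of any group. The ratios to WT were 0.384, 0.423 and 0.307, and the log2 differences -1.33, -1.20 and -1.64 (SE 0.153, limma adjusted p = 0.000446, 0.000784 and 0.000121). These 3 calls held under every alternative and without any 1 sample.

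The other TspanC8 genes moved in different directions. Tspan15 stood at 4.67 and 5.18 FPKM in WT, with E1-KO at 2.99 and 3.11, E2-KO at 2.39 and 2.15 and E3-KO at 1.43 and 1.30, so that the 4 groups formed a descending order without overlap. It fell in all 3 knockouts by limma (log2 differences -0.55, -0.86 and -1.32, adjusted p = 0.0131, 0.00198 and 0.000175), although the call in E1-KO was lost without E1-KO replicate 1 (0.0754), E1-KO replicate 2 (0.0546) or WT replicate 2 (0.1). Tspan17 moved the other way. It stood at 1.36 and 2.41 FPKM in WT and between 3.30 and 4.43 in the knockouts, with log2 differences of 0.76, 0.63 and 0.81 (limma adjusted p = 0.0136, 0.0296 and 0.00837). These calls depended on WT replicate 1, the lowest sample, without which the adjusted p was 0.0997, 0.206 and 0.0649. In E1-KO the call was also lost without E1-KO replicate 1 (0.0533) or 2 (0.0754). In E2-KO it was also lost without E2-KO replicate 1 (0.0824) or 2 (0.0956) and without the filter on low levels (0.0719). Tspan5 fell in E2-KO alone of the 3 (-0.53, limma adjusted p = 0.0247), with -0.40 (0.063) in E1-KO and -0.26 (0.194) in E3-KO. That call was lost without WT replicate 1 (0.182), E2-KO replicate 1 (0.0551) or 2 (0.0934), after quantile normalization (0.0759) and without the filter (0.056). Tspan33, on chromosome 6, stood at 1.87 and 2.01 FPKM in WT and 0.896 and 0.933 in E3-KO, a fall of -0.62 (limma adjusted p = 0.014) that became -0.08 (0.706) once the chromosome 6 shift was removed. It was also lost without WT replicate 1 (0.0553) or WT replicate 2 (0.0818). Tspan10 had no value.

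Adam10 itself, named here after its values were seen, stood at 20.8 and 19.4 FPKM in WT, with E1-KO at 11.7 and 12.5, E2-KO at 15.5 and 16.9 and E3-KO at 19.8 and 17.7. It fell in E1-KO (log2 difference -0.69, limma adjusted p = 0.0019), with -0.30 (0.0646) in E2-KO and -0.10 (0.504) in E3-KO. Its order across the knockouts was thus unlike that of Tspan15, which was lowest in E3-KO, where Adam10 was nearest to WT.

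**Figure D3:**
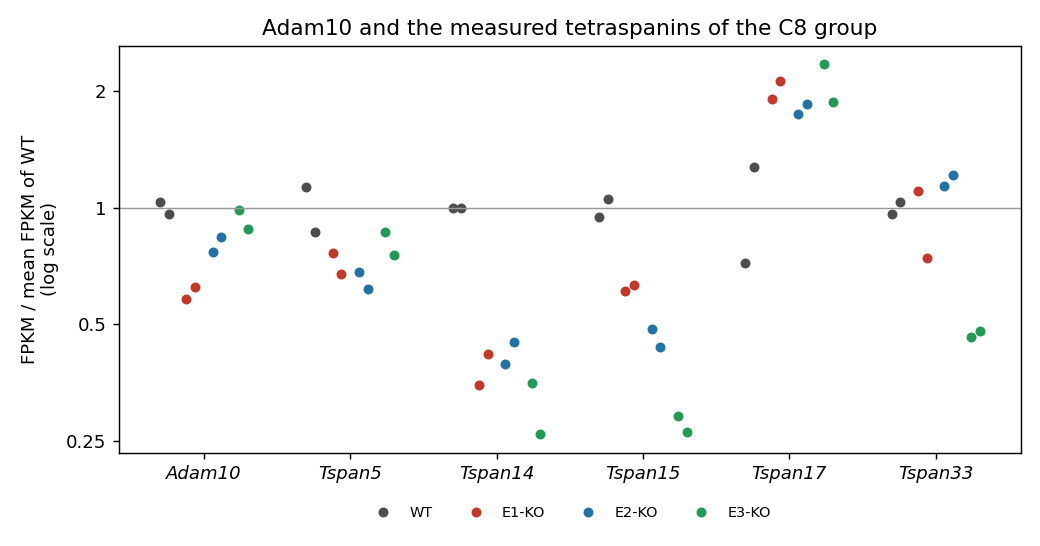
Level in each sample divided by the mean of the WT samples (log axis) for Adam10 and the 5 measured TspanC8 genes, with 1 point per sample coloured by group. Tspan14 and Tspan15 lie below 1 in all knockout samples and Tspan17 above 1, and Adam10 is lowest in E1-KO.

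Tspan4, a tetraspanin of migrasomes, the vesicles that moving cells leave on retraction fibres, stood at 6.75 and 7.04 FPKM in WT, with E1-KO at 5.91 and 5.11, E2-KO at 8.46 and 7.70 and E3-KO at 3.56 and 3.85. The groups did not overlap, with E2-KO above WT and E3-KO lowest. It fell in E3-KO (log2 difference -0.75, SE 0.127, limma adjusted p = 0.0019), which held under every alternative and without any 1 sample, while 0.20 in E2-KO (adjusted p = 0.242) and -0.28 in E1-KO (adjusted p = 0.112) did not pass. Tspan4 and Cd151 are close neighbours on chromosome 7 (Cd151 at 141467392 to 141471473 and Tspan4 at 141475240 to 141493427, GRCm38, both on the plus strand). Cd151, whose product binds laminin-binding integrins tightly, did not pass in any knockout. It stood at 24.4 and 23.8 FPKM in WT, with E1-KO at 26.4 and 25.7, E2-KO at 24.5 and 28.6 and E3-KO at 30.3 and 21.3, where the 2 E3-KO samples span all the others. Its log2 differences were 0.11, 0.13 and 0.08 (SE 0.154, limma adjusted p = 0.608, 0.531 and 0.714).

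Tspan3 stood at 17.3 and 16.2 FPKM in WT, with E1-KO at 21.2 and 17.1, E2-KO at 21.2 and 20.6 and E3-KO at 19.7 and 18.6. Both E2-KO and both E3-KO samples lay above WT, but by little. The log2 differences of 0.18, 0.30 and 0.18 (SE 0.120) did not pass (limma adjusted p = 0.274, 0.0759 and 0.24). Those in E2-KO and E3-KO passed after median-ratio scaling (0.38 and 0.35, adjusted p = 0.0354 and 0.0428) and quantile normalization (0.42 and 0.38, adjusted p = 0.0245 and 0.0291). Cd82, known as a suppressor of metastasis, was scarcely detected. It stood at 0.873 and 0.229 FPKM in WT, with E1-KO at 0.186 and 0.285, E2-KO at 0.681 and 0.719 and E3-KO at 1.74 and 0.628, and the 2 WT samples alone spanned both E2-KO values.

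**Figure D4:**
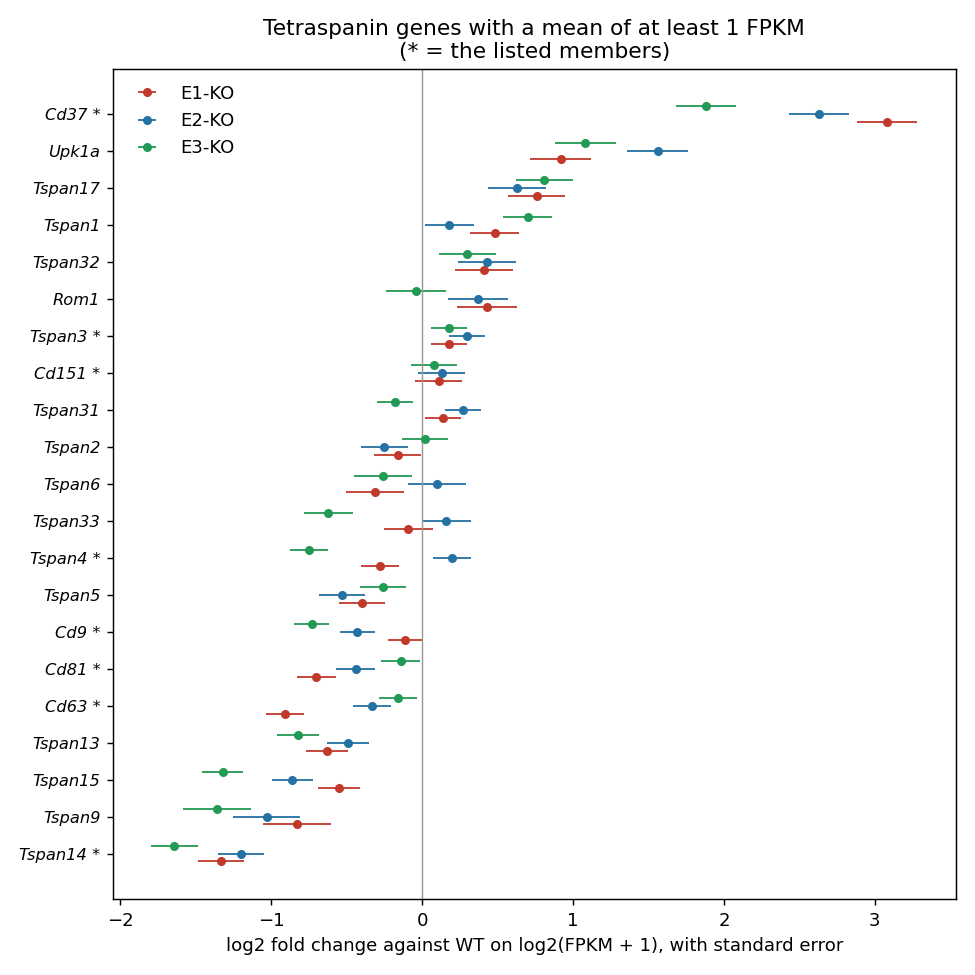
Log2 difference from WT on log2(FPKM + 1), with its standard error, of the tetraspanin genes averaging 1 FPKM or more, coloured by knockout and ordered by the mean of the 3 values, with a star on the 8 of the 9 chosen genes that passed this minimum. Cd37 stands at 1.88 to 3.08 and the next gene, Upk1a, at 0.92 to 1.56, while Tspan14 is at the other end at -1.20 to -1.64. The standard errors of Cd37 take no account of its having been chosen for its rise.

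Direct comparisons between knockouts take no level from the WT samples, which enter them only through the shared estimate of spread. Between E2-KO and E1-KO, limma called 0 of the 7 tested genes in either direction, where 0.488% of all genes were called higher in E2-KO and 0.346% lower. At an unadjusted p under 0.05 it had 2 higher and 1 lower, with no all-gene share counted at that threshold. Cd63 came nearest (0.58, adjusted p = 0.0726) and passed without E3-KO replicate 1 (0.0399) or 2 (0.04). Between E3-KO and E1-KO, 2 were higher and 2 lower in E3-KO, against 9.42% and 16.4% of all genes. Cd63 was higher (log2 difference 0.75, limma adjusted p = 0.0032), as was Cd81 (0.56, adjusted p = 0.0125). Cd9 (-0.62, adjusted p = 0.00535) and Tspan4 (-0.47, adjusted p = 0.0267) were lower. E1-KO therefore had less mRNA of Cd63 and Cd81 than E3-KO, and E3-KO had less of Cd9, so that in E3-KO Cd81 was at or above the level of Cd9 (31.5% and 34.1% of the family sum, against 31.3% and 31.1% for Cd9). In WT those shares were 28.1% and 26.5% for Cd81 and 38.6% and 39.7% for Cd9. The difference of Cd9 became -0.05 (adjusted p = 0.788) after the chromosome 6 shift was removed. That of Cd81 was lost without E1-KO replicate 1 (adjusted p = 0.0703) or 2 (0.0806). That of Tspan4 was lost without E1-KO replicate 1 (0.173) or 2 (0.0587), E3-KO replicate 1 (0.0889) or either WT replicate (0.052), after median-ratio scaling (0.0562) and quantile normalization (0.0504) and in a fit of the 4 samples alone (0.0656).

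Between E3-KO and E2-KO, 0 of the 7 were higher and 1 lower, against 5.48% and 10.1% of all genes. At an unadjusted p under 0.05 limma had 1 higher and 3 lower, again with no all-gene share counted. The gene called was Tspan4 (-0.95, limma adjusted p = 0.00225), and that call held under every alternative and without any 1 sample. Tspan14 did not pass between any 2 knockouts, with log2 values of 0.13 for E2-KO over E1-KO (adjusted p = 0.687), -0.31 for E3-KO over E1-KO (0.167) and -0.44 for E3-KO over E2-KO (0.0837). Cd81 between E3-KO and E2-KO (0.31, adjusted p = 0.139) passed without E2-KO replicate 2 (0.50, adjusted p = 0.0167). Without E3-KO replicate 1, the last of the Tspan14 values passed (-0.64, adjusted p = 0.0292) and so did that against E1-KO (-0.51, adjusted p = 0.0476).

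The rest of the family comprised 22 further genes. Tspan10, Tspan18 and Upk1b had no value, 6 (Tspan7, Tspan8, Tspan11, Tspan12, Cd53 and Prph2) were under a mean of 1 FPKM, and 13 were tested. E1-KO had 3 of these called higher and 3 lower, E2-KO 2 and 4, and E3-KO 3 and 4, with median log2 differences of -0.09, 0.16 and -0.18. Over all genes tested, 15.0%, 14.1% and 13.9% were called higher and 23.0%, 22.0% and 30.8% lower, with medians of -0.062, -0.076 and -0.151, so these counts were near the background. Upk1a, a uroplakin of the bladder lining, rose from 0.999 and 0.703 FPKM in WT, with E1-KO at 2.71 and 2.28, E2-KO at 5.37 and 3.68 and E3-KO at 3.46 and 2.43. Its order across the knockouts differed from that of Cd37, with E2-KO highest. The log2 differences were 0.92, 1.56 and 1.08 (limma adjusted p = 0.00777, 0.000798 and 0.0028), and the first was lost without E1-KO replicate 1 (0.0579) or WT replicate 2 (0.0632). Upk1a and Tspan1 were under 1 FPKM in WT and reached the test only through their knockout samples, so their direction was partly set by the filter. Tspan1 rose in E1-KO (0.48, limma adjusted p = 0.0442) and E3-KO (0.70, adjusted p = 0.00806), with 0.18 (0.409) in E2-KO. Its call in E1-KO was lost without any 1 of the 4 samples compared (0.0968 to 0.207) and with a replicate block (0.0552), and that in E3-KO without WT replicate 1 (0.0597).

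Tspan9 and Tspan13 fell in all 3 knockouts, as Tspan15 did. Tspan9, on chromosome 6, stood at 16.9 and 22.3 FPKM in WT, with E1-KO at 10.2 and 10.7, E2-KO at 6.80 and 11.8 and E3-KO at 6.36 and 7.61. Its log2 differences were -0.83, -1.03 and -1.36 (limma adjusted p = 0.0184, 0.00793 and 0.00163), and with the chromosome 6 shift removed that in E3-KO was -0.82 (0.0189). The call in E1-KO was lost without E1-KO replicate 1 (0.0915) or 2 (0.0681), WT replicate 2 (0.137) or the filter on low levels (0.0536), and that in E2-KO without WT replicate 2 (0.0707). Tspan13 stood at 14.4 and 14.1 FPKM in WT and between 6.71 and 10.2 in the knockouts. Its log2 differences were -0.63, -0.49 and -0.82 (limma adjusted p = 0.00802, 0.0237 and 0.0018). The call in E1-KO was lost without E1-KO replicate 2 (0.0633) or WT replicate 1 (0.051) or 2 (0.0505). The call in E2-KO was lost without E2-KO replicate 1 (0.0961), E2-KO replicate 2 (0.05), WT replicate 1 (0.11) or 2 (0.103) and after quantile normalization (0.064).

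Partners of tetraspanins were read from a fixed list of 17 genes, of which 11 were tested. E1-KO had 1 called higher and 4 lower, E2-KO 1 and 3, and E3-KO 1 and 5, with medians of -0.25, -0.29 and -0.31. The shares of all genes were 15.0%, 14.1% and 13.9% higher and 23.0%, 22.0% and 30.8% lower, with medians of -0.062, -0.076 and -0.151, and the partner counts were not far from them. The gene called higher in each was Itga3, the alpha 3 chain of a laminin receptor that CD151 binds, at 11.4 and 10.99 FPKM in WT and between 17.4 and 29.1 in the knockouts (log2 differences 1.19, 0.86 and 0.73, limma adjusted p = 0.000593, 0.00275 and 0.004). Other integrin genes of the list, named after their values were seen, went the other way. Itga6, at 49.9 and 58.7 FPKM in WT, fell in all 3 (-0.4, -0.65 and -0.51, limma adjusted p = 0.0161, 0.00198 and 0.00432). Itgb1 fell in E3-KO (-0.31, limma adjusted p = 0.0344), with -0.25 (0.0795) in E1-KO and -0.29 (0.0548) in E2-KO. Igsf8, which encodes EWI-2, the partner of CD9 and CD81, fell in E3-KO (-0.98, adjusted p = 0.00123), with -0.43 (0.0546) in E2-KO and -0.18 (0.375) in E1-KO. Cldn7, a claudin that joins EPCAM and tetraspanins in a complex, fell in all 3 by limma (-0.63, -1.12 and -0.63, adjusted p = 0.0189, 0.00165 and 0.016), and Epcam fell in E2-KO (-0.95, adjusted p = 0.00312), with -0.44 (0.0637) and -0.36 (0.111) in E1-KO and E3-KO. The call of Cldn7 in E1-KO was lost without E1-KO replicate 2 (0.124) or WT replicate 1 (0.0916) or 2 (0.0843), and that in E3-KO without E3-KO replicate 2 (0.0902) or WT replicate 1 (0.079) or 2 (0.0708).

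Of 15 genes of extracellular vesicle formation, 12 were tested, and E1-KO had 2 called higher and 2 lower, E2-KO 1 and 3, and E3-KO 1 and 4, with medians of -0.05, -0.06 and -0.06. These counts too lay near the shares of all genes (15.0%, 14.1% and 13.9% higher, 23.0%, 22.0% and 30.8% lower). The lower calls in E3-KO included Rab7 (log2 difference -0.45, limma adjusted p = 0.00545). Rab7 lies on chromosome 6, which sat lower as a whole in E3-KO, and its value with that shift removed was not read. Tsg101, of the ESCRT-I complex, rose in all 3 by limma (log2 differences 0.78, 0.60 and 0.83, adjusted p = 0.00255, 0.00902 and 0.00149). Sdcbp, which encodes syntenin, an adaptor that links cargo such as CD63 to vesicle budding, fell in all 3 (-0.94, -0.62 and -0.74, limma adjusted p = 0.002, 0.0132 and 0.00481). Flot2, a scaffold of membrane rafts, fell from 48.1 and 46.8 FPKM in WT, with E1-KO at 32.3 and 31.8, E2-KO at 23.3 and 26.2 and E3-KO at 14.5 and 16.3 (-0.55, -0.92 and -1.57, limma adjusted p = 0.00392, 0.000475 and 4.8e-05). Rab27a, a small GTPase of vesicle docking, rose in E1-KO (0.56, limma adjusted p = 0.0157), with 0.28 (0.159) and 0.08 (0.666) in the other two. In E2-KO the call of Tsg101 was lost without E2-KO replicate 1 (0.0519) or WT replicate 2 (0.0608), and that of Sdcbp without E2-KO replicate 2 (0.0658) or WT replicate 1 (0.0732) or 2 (0.0691). That of Rab27a in E1-KO was lost without E1-KO replicate 1 (0.107) or WT replicate 1 (0.0526) or 2 (0.106).

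A short list of 6 genes of lysosomes and of Wnt and norrin reception, both settings of tetraspanin function, had 4 tested genes. The list was chosen with earlier results of these data known. Fzd4, at a mean of 0.765 FPKM, was under the filter and Ndp had no value. Lrp5 was thus the only tested gene of Wnt and norrin reception, and the counts do not describe that setting. None was called higher, and E1-KO had 4 lower, E2-KO 3 and E3-KO 4, where 23.0%, 22.0% and 30.8% of all genes were called lower. The medians were -0.61, -0.71 and -0.76, against -0.062, -0.076 and -0.151 over all genes. At an unadjusted p under 0.05 limma had 0 higher and 4 lower in each, with no all-gene share counted at that threshold. Lamp2, a lysosomal membrane protein gene, stood at 60.5 and 58.2 FPKM in WT and between 24.9 and 31.3 in the knockouts (log2 differences -1.0, -1.17 and -0.93, limma adjusted p = 0.000184, 0.0001 and 0.000155). Lamp1, its relative, fell less (-0.56, -0.44 and -0.34, limma adjusted p = 0.00315, 0.00962 and 0.0237), and its call in E3-KO was lost after median-ratio scaling (-0.16, 0.197) and without WT replicate 1 (0.0872) or 2 (0.153), E3-KO replicate 2 (0.0687) or E1-KO replicate 1 (0.052) or 2 (0.0524). In E2-KO it was lost without WT replicate 1 (0.0534) or 2 (0.0878). Lrp5, a Wnt coreceptor, fell in all 3 (-0.56, -0.97 and -0.76, limma adjusted p = 0.00999, 0.000976 and 0.002). Pmel, whose product is sorted in endosomes with the help of CD63, fell in E1-KO (-0.66, limma adjusted p = 0.0161) and E3-KO (-0.75, adjusted p = 0.00777), with -0.44 (0.0762) in E2-KO. Without WT replicate 2, the higher WT sample of both genes, the E1-KO calls of Lrp5 (0.0902) and Pmel (0.137) and the E3-KO call of Pmel (0.0742) were lost, and the E1-KO calls were also lost without E1-KO replicate 1 (0.0568 and 0.0761) or 2 (0.0557 and 0.0682).

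The likeness of other genes to Cd37 was measured as the Pearson correlation of log2(FPKM + 1) over the 8 samples, a description that carries the WT-to-knockout step of the 4 groups and has no test. Among 11267 genes ranked, Mcm5 (0.995), Porcn (0.993), Ywhah (0.991), Naa10 (0.989) and Srrt (0.988) were nearest. Porcn, the acyltransferase gene needed for Wnt secretion, stood at 1.49 and 2.00 FPKM in WT, with E1-KO at 8.09 and 7.24, E2-KO at 7.27 and 5.64 and E3-KO at 3.62 and 4.34, thus with E1-KO highest and E3-KO lowest of the knockouts. Mcm5, of the replicative helicase, stood at 154 and 159 FPKM in WT, with E1-KO at 268 and 269, E2-KO at 269 and 244 and E3-KO at 211 and 229, a smaller relative change. No other tetraspanin was close to Cd37 on this measure. Tspan17 (0.81, rank 965) and Upk1a (0.79, rank 1099) came nearest, and of the chosen genes Tspan3 (0.66, rank 1802) and Cd151 (0.25, rank 3835). Cd81 (-0.87, rank 10582), Tspan14 (-0.82, rank 10159) and Cd63 (-0.77, rank 9735) lay near the opposite end.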

How the data were processed

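RNA from 8 samples of mouse embryonic stem cells was sequenced as paired-end reads of 150 bases after preparation with a total RNA kit, per the labels' protocols. The authors deposited 1 value per gene row and sample, read here as FPKM made with Cufflinks 2.2.1, which the submitters' processing notes name. The unit itself is in no label or header and was inferred (fractional values, sums of 454974 to 532007 per sample). The same notes name Trimmomatic 0.36, TopHat2 2.0.12 and build mm9, and the files carry no coordinates, so printed positions refer to GRCm38 (GENCODE M21, RefSeq). The 18774 rows held 17812 identifiers, of which 17262 matched a symbol. For 660 repeated identifiers the row that fits the order of chromosome, strand and position was kept (574 kept, 86 left out), which left 17726.

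Levels were compared as log2(FPKM + 1) with limma 3.58.1 (trend, R 4.3.3) in 1 fit of the 4 groups (4 residual degrees of freedom), on 11268 genes averaging 1 FPKM or more, two-sided, with Benjamini-Hochberg adjustment over all of them and a threshold of 0.05. Replicate sampling was not described beyond biological duplicates, so p-values measure the spread between these samples. The members and lists were chosen with earlier results of these data known. Named beside the members were other tetraspanins called in at least 1 knockout, up to 4 called genes per list with the largest change, 3 neighbours on each side of Cd37 and the 5 genes most like it. No total count is given in the files. Ratios of low values put depth at a rough 0.79 to 1.01 times that of WT replicate 1, with 11.6% to 23% of ratios at the mode, too few to recover whole reads. Genes at 1 FPKM or more numbered 11074 to 11261 per sample. In data simulated on the E1-KO and WT comparison (11268 genes, 200 changed), 62% of log2 changes of 0.5 and 100% of those of 1 were recovered. The changed genes were all at about 5 FPKM or more, and genes of like level were given the same smoothed spread. Recovery for genes at lower levels or with a wider spread of their own was therefore not measured. Alternatives covered scaling, pseudocount, filters, trend, repeated rows, a chromosome 6 shift, the replicate number and each sample left out.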

Additional observations from a re-analysis of the deposited data

Results flagged for a closer look

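In 5 cases a tetraspanin's difference from WT differed between 2 knockouts by a direct limma comparison of those knockouts. Over all genes, 9.42% were called higher and 16.4% lower in E3-KO than in E1-KO. Against E2-KO these shares were 5.48% and 10.1%. Cd9 was lower in E3-KO than in E1-KO (log2 difference -0.62, adjusted p = 0.00535, both E3-KO samples below both E1-KO samples), and its gene lies on chromosome 6, which sat lower as a whole in E3-KO. Cd63 (0.75, adjusted p = 0.0032) and Cd81 (0.56, adjusted p = 0.0125) were higher in E3-KO than in E1-KO, again in both samples. Tspan4 was lower in E3-KO than in E1-KO (-0.47, adjusted p = 0.0267) and than in E2-KO (-0.95, adjusted p = 0.00225). With the chromosome 6 shift removed, the value of Cd9 became -0.05 (limma adjusted p = 0.788). The call of Cd81 was lost without either E1-KO replicate. That of Tspan4 against E1-KO was lost in several settings, among them median-ratio scaling (-0.38, limma adjusted p = 0.0562).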

How the results depend on the processing

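With 2 samples per group and FPKM values of unknown depth, small differences could be missed. The count of called tetraspanins stayed within 1.5 times its value in all comparisons under 9 of the 10 alternatives that keep all samples. Quantile normalization gave 5 of 7 called in E2-KO against WT (1 higher, 4 lower) in place of 3. That measure ignores direction: median-ratio scaling kept 3 there, but as 1 higher and 2 lower in place of 0 and 3. The gene called higher under both settings was Tspan3, which also passed in E3-KO under both. The replicate numbers did not pair the samples (correlations of same-numbered deviations from -0.043 to 0.089), and a replicate block left the counts at 3, 3 and 3 against WT and at 0, 4 and 1 between knockouts. Leaving out 1 sample gave counts of 3 to 3, 1 to 4 and 3 to 3 against WT, 0 to 1 for E2-KO against E1-KO, 2 to 4 for E3-KO against E1-KO and 1 to 2 for E3-KO against E2-KO. Of 756 member values under alternatives, 707 kept direction and side of the threshold, 21 lost the call, 13 gained it and 15 changed sign, and in none of the 15 had the value been called. After median-ratio scaling, Cd63 (0.01) and Cd81 (0.04) in E3-KO against WT and Cd151 in E3-KO against E1-KO (0.07) and E2-KO (0.03) changed sign. After quantile normalization, Cd151 did so against the same knockouts (0.06 and 0.03). After the chromosome 6 shift, so did Cd9 in E3-KO against E2-KO (0.28). With 1 sample left out, Cd151 ranged from -0.17 to 0.32 in E3-KO against WT, -0.08 to 0.13 in E2-KO against E1-KO, -0.28 to 0.21 in E3-KO against E1-KO and -0.30 to 0.19 in E3-KO against E2-KO. Tspan3 then ranged from -0.02 to 0.28 in E2-KO against E1-KO and -0.14 to 0.16 in E3-KO against E1-KO. Cd37 was chosen for its higher level in these samples, so its range under the alternatives is a description and no support. Its log2 differences from WT ranged from 2.84 to 3.66 (E1-KO), 2.39 to 3.19 (E2-KO) and 1.64 to 2.38 (E3-KO). Over all genes, the calls between E2-KO and E1-KO (94) fell to 31 with the block and to 1 in a fit of the 4 samples alone, and those between E3-KO and E2-KO (1753) to 676 in such a fit. All-gene calls ranged from 2040 to 4673, 1870 to 4452 and 2827 to 5337 against WT with 1 sample left out (4284, 4069 and 5035 with all), from 2 to 262 and 1308 to 3279 for E2-KO and E3-KO against E1-KO (94 and 2910), and from 973 to 1552 for E3-KO against E2-KO. The count of E2-KO against E1-KO was 1 without the filter and 58 at a mean of at least 5 FPKM. Of the 13 further tetraspanins, 6, 6 and 7 were called against WT, 2, 3 and 2 with that stricter filter, which tests fewer genes, and 1 to 6, 3 to 6 and 4 to 7 with 1 sample left out. Where a group keeps 1 sample, it is assumed to vary like the others. The cause of these moves was not tested.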
